A study of Mus musculus with 24 samples.

Results

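Transcripts of oligodendrocytes, the myelin-forming glia of the brain, were followed in mouse retinal organoids (MROs) with 8 genes chosen by their symbols, namely Olig1, Olig2, Sox10, Pdgfra, Cspg4, Mbp, Mog and Cnp. All 8 were found among the 46603 annotated genes of the count tables, and 6 of them averaged 10 or more normalized counts over all organoids (base mean), the minimum for testing. Cspg4 and Mog were below it. Each library held the RNA of 1 whole MRO, with 6 MROs at each of day 20 (D20), D22, D25 and D30 and 24 in all. Every MRO came from wild-type E14Tg2a mouse embryonic stem cells, carried the genotype label Control, and water as solvent is the only addition its label names. The culture protocol of the study also used serum and, before the sampled days, the retinoid analog EC23. All organoids belonged to 1 differentiation experiment of 1 cell line, so the p-values below measure the spread between organoids of that experiment and not between experiments. Reads counted on a feature numbered 13634846 to 19477108 per organoid, at which depth 3 counts correspond to a CPM (counts scaled to the library total) of 0.154 to 0.22.

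Oligodendrocytes arise from precursor cells in the ventral neural tube and forebrain, and these precursors migrate, divide and later wrap axons in myelin. The mouse retina normally lacks them, since precursors that enter the optic nerve stop near the eye and axons inside the retina stay without myelin. The genes therefore ask whether glia of a brain type accompany the retinal cells in these organoids, and at which stage, because transcription factors, precursor surface proteins and myelin proteins switch on in succession. Because whole organoids were lysed, a lower level can mean fewer cells of a type or less RNA per cell, which cannot be told apart.

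Levels are given as normalized CPM, which are counts scaled by the TMM library size, and ± stands for the SD among the 6 organoids, or, behind a log2 fold change, for its SE. The quasi-likelihood test of edgeR was run on 46949 features, with Benjamini-Hochberg adjustment over all of them and a threshold of 0.01. For D22 against D20, 0 of the 6 tested members passed, where 1.90% of all features did (1.62% higher and 0.285% lower) and 3.32% of the 16253 annotated genes among them. In that comparison 1 member had an unadjusted p below 0.05 in edgeR, and DESeq2 also called 0. For D25 against D22, 1 of 6 passed, beside 5.28% of all features (3.08% higher and 2.19% lower) and 10.2% of annotated genes. For D30 against D25 it was again 1 of 6, beside 3.51% (1.76% higher and 1.75% lower) and 7.38% of annotated genes. For D30 against D20, 5 of 6 passed, 3 higher and 2 lower, beside 26.8% of all features (13.9% higher and 13.0% lower) and 41.8% of annotated genes (25.1% higher and 16.7% lower). The median log2 fold change of the 6 members from D20 to D30 was 1.24, that of all features was -0.038, and that of annotated genes was 0.099. Members that pass a minimum on counts through D30 alone had to differ, so these counts describe the members and do not test them as a group. Sox10 passed the minimum through D30 alone, and Olig1 mainly through D30.

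**Figure D1:**
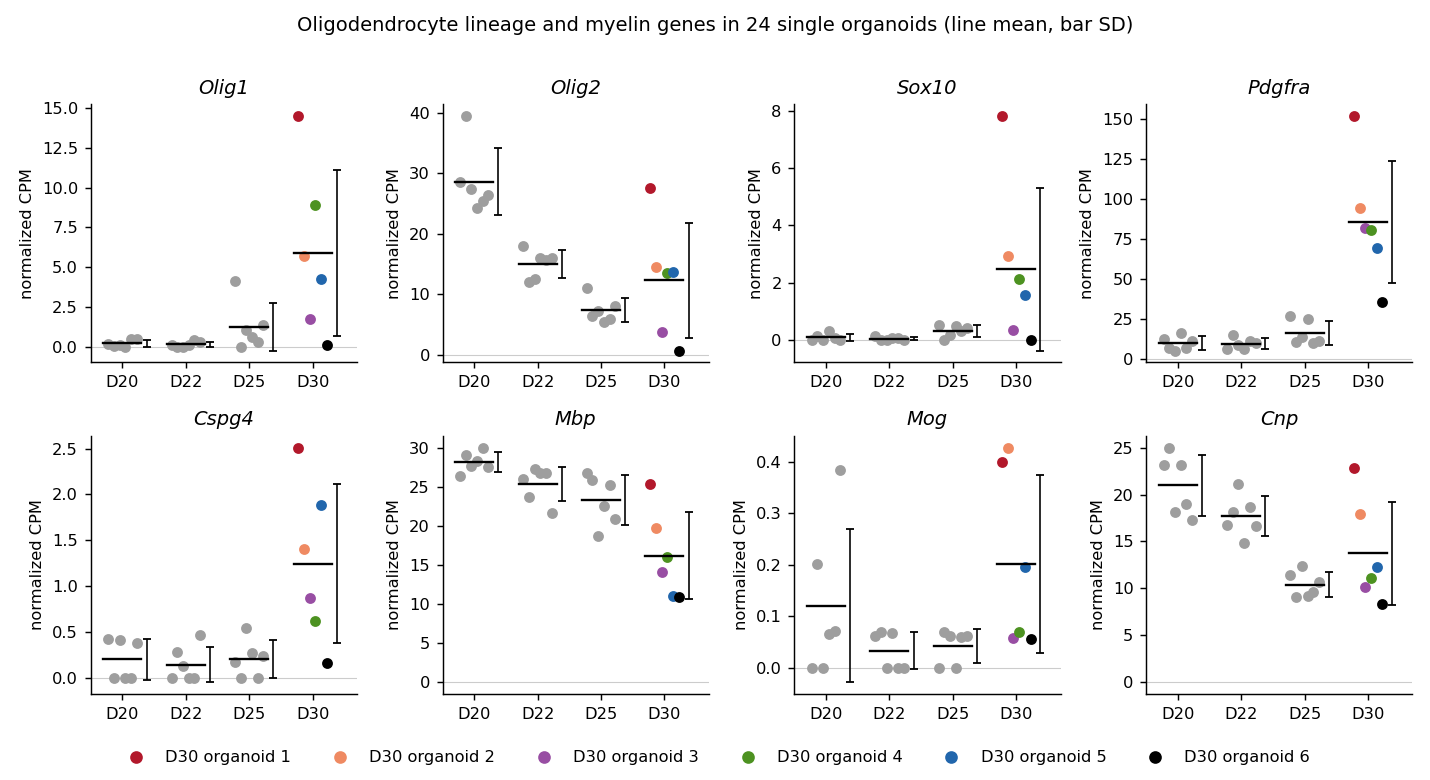
Normalized CPM of the 8 genes (vertical axis, a scale for each gene) in single organoids at D20, D22, D25 and D30 (horizontal axis), with the mean as a line and the SD as a bar beside it, n = 6. D30 organoids are coloured by their number. Pdgfra lay between 36.1 and 152 normalized CPM in the D30 organoids, above all others, whereas Sox10 at D30 ranged from 0 to 7.82.

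Olig1 and Olig2 encode basic helix-loop-helix factors and are neighbours on chromosome 16. Olig1 (ENSMUSG00000046160, GRCm38 chr16:91269772-91271933, plus strand) is expressed in oligodendrocyte precursors and oligodendrocytes. Its lowest, median and highest levels at D20 were 0, 0.104 and 0.498 normalized CPM, and 0, 0.0955 and 0.432 at D22. At D25 they were 0, 0.824 and 4.11, and at D30 they reached 0.111, 4.97 and 14.5. Nearly nothing was counted at D20 and D22, with 18 and 13 counts in all organoids together, against 574 at D30. At D30, organoid 1 was highest with 254 counts and organoid 6 lowest with 2, and 5 of the 6 D30 organoids lay above every D20 organoid. The base mean of Olig1, 29.2, came mainly from D30, with mean counts of 3.0, 2.17 and 21 at D20, D22 and D25 against 95.7. Olig1 thus passed the minimum for testing mainly through D30, and its test values are a description. Olig1 rose from D20 to D30 by a log2 fold change of 4.8 ± 0.89 (adjusted p = 6.9e-05, edgeR). The steps between were not called, with 3.01 ± 0.94 for D25 against D22 (adjusted p = 0.0328, edgeR) and 2.23 ± 0.73 for D30 against D25 (adjusted p = 0.0635, edgeR). In each of these steps, 4 of the 6 later organoids lay above every earlier one. Both depended on D25 organoid 1, without which they were 2.11 (adjusted p = 0.167, edgeR) and 3.13 (adjusted p = 0.0101, edgeR), while the D25 step was 3.63 without D22 organoid 5 (adjusted p = 0.0293, edgeR). Over the settings and single organoids left out, adjusted p ran from 0.012 to 0.167 for the D25 step and from 0.0101 to 0.395 for the D30 step. Without D30 organoids 1 and 2, an alternative chosen after the data were seen, the D30 step was 1.59 and the rise from D20 to D30 was 4.15 (adjusted p = 0.395 and 0.0012, edgeR). Exons of Olig1 overlap those of Gm15966 on the other strand by 157 bases. The strand setting of the counting was not stated, so reads there may belong to either gene.

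Olig2 (ENSMUSG00000039830, chr16:91225457-91228677, plus strand) specifies oligodendrocyte precursors, and it is also found in dividing progenitors of the developing retina. It followed another course than Olig1. The lowest, median and highest Olig2 levels at D20 were 24.2, 26.9 and 39.4 normalized CPM, and at D22 they were 12, 15.8 and 18.0. At D25 they were 5.53, 6.91 and 11, and at D30 they spread from 0.721 over 13.7 to 27.5. Every D22 organoid lay below every D20 organoid, and every D25 organoid below every D22 organoid. At D30 the organoids scattered, with organoid 1 inside the range of D20, organoids 1, 2, 4 and 5 above every D25 organoid and organoids 3 and 6 below every D25 organoid. The log2 fold change of Olig2 after D25 was 0.73 ± 0.38 (adjusted p = 0.318, edgeR) and was not called. The log2 fold change of Olig2 was -0.93 ± 0.37 from D20 to D22 (adjusted p = 0.165, edgeR) and -1.02 ± 0.38 from D22 to D25 (adjusted p = 0.0821, edgeR), neither of which was called. In fits of only the compared timepoints, which hold no D30 organoid, both were called at the same log2 fold changes, with adjusted p = 0.00048 and 0.000896 (edgeR). Among the other settings the highest adjusted p was 0.218 and 0.132. Without D30 organoid 6 the D25 step was also called (-1.02, adjusted p = 0.00735, edgeR), and with other single organoids left out its adjusted p reached 0.157. From D20 to D30 the change was -1.21 ± 0.38 with an adjusted p of 0.0109 (edgeR), just above the threshold, and 5 of 6 D30 organoids lay below every D20 organoid. It was called at -1.63 without D30 organoid 1 (adjusted p = 0.000745, edgeR) and at -0.96 without D30 organoid 6 (adjusted p = 0.00443, edgeR), while with other single organoids left out adjusted p reached 0.0293. It was also called without a filter on low counts (-1.18), among annotated genes only (-1.35) and with the replicate number as a block (-1.41), where adjusted p over the settings ran from 0.000475 to 0.0482.

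Sox10 (ENSMUSG00000033006, chr15:79154908-79165240, minus strand) encodes an SRY-box factor required for myelin gene expression, in Schwann cells and other neural crest derivatives as well as in oligodendrocytes. The lowest, median and highest levels were 0, 0.0356 and 0.33 normalized CPM at D20, and 0, 0.0342 and 0.123 at D22. They were 0, 0.362 and 0.521 at D25 and 0, 1.85 and 7.82 at D30. Counts at D30 were 137 in organoid 1, 48 in organoid 2, 31 in organoid 4, 24 in organoid 5, 6 in organoid 3 and 0 in organoid 6. Up to D22, no more than 5 counts were found in any organoid. At a count of 0, up to 3 counts remain possible by counting error, so Sox10 was not detectable in organoid 6. Since Sox10 passed the minimum for testing through D30 alone, its test values, also those under other settings, are a description. Between D20 and D30, Sox10 rose by 4.66 ± 0.96 in log2 units (adjusted p = 0.000255, edgeR), with 5 of 6 D30 organoids above every D20 organoid. The rise was 5.66 without D20 organoid 4, 3.84 without D30 organoid 1 and 3.37 without D30 organoids 1 and 2 (adjusted p = 0.000161, 0.00181 and 0.00927, edgeR), the last being the highest adjusted p over the settings. From D25 to D30, where 4 of 6 lay above every D25 organoid, the log2 fold change was 2.90 ± 0.83 (adjusted p = 0.0287, edgeR), which passed in DESeq2 (2.99, adjusted p = 0.00819) and without D30 organoid 6 (3.16, adjusted p = 0.00545, edgeR). In the other settings its adjusted p reached 0.424.

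Among surface proteins of precursors, Pdgfra (ENSMUSG00000029231, chr5:75152292-75198215, plus strand) encodes the receptor through which platelet-derived growth factor drives precursor division. It is also expressed by fibroblasts and other mesenchymal cells. Promoters of Pdgfra and, among the myelin genes, Cnp are shown because both genes were called and both have a window in the RefSeq promoter table (GRCm38.p6), which covers 250 bases before to 50 after a gene's start. Capitals mark CANNTG, the E-box letters bound by basic helix-loop-helix factors, and ACAAAG, letters bound by SOX factors, searched on both strands.
Pdgfra, chr5:75152001-75152300, plus strand: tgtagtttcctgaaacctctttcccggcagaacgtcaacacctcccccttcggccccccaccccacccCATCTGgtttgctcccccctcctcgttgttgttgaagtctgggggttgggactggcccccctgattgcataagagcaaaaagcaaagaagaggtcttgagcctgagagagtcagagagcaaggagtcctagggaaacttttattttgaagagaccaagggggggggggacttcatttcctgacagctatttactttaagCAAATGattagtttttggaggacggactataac
Cnp, chr11:100574689-100574988, plus strand: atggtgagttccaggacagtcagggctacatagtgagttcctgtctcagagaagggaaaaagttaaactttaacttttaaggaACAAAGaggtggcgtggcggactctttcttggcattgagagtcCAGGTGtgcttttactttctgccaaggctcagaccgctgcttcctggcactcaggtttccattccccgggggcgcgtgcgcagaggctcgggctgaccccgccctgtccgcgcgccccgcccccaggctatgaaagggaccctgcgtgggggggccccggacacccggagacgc
The Pdgfra window holds 2 E-boxes and no ACAAAG, and the Cnp window holds 1 of each, with no overlap between the motifs. Windows were found for 5 of the 8 members, and those of Olig2, Cspg4 and Mog hold neither motif. Of 32841 windows, 72.3% hold at least 1 E-box, 39.6% hold at least 2, and 18.7% hold ACAAAG on either strand. A match is a description of letters in the window.

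The course of Pdgfra set D30 apart. Its lowest, median and highest levels were 5.43, 9.38 and 16.3 normalized CPM at D20, and 6.44, 9.61 and 15.1 at D22. At D25 they were 10.3, 12.6 and 27.2, and at D30 they were 36.1, 81.4 and 152. Each of the 6 D30 organoids lay above each of the 18 earlier ones. Organoid 1 was again highest and organoid 6 lowest, but organoid 6, which had no Sox10 count, still held 651 Pdgfra counts. Pdgfra was higher in 6 of 6 organoids and rose after D25 by 2.38 ± 0.30 in log2 units (adjusted p = 2.84e-06, edgeR), and from D20 to D30 by 3.09 ± 0.31 (adjusted p = 2.82e-09, edgeR). From D20 to D22 its log2 fold change was -0.03 ± 0.30, and from D22 to D25 it was 0.74 ± 0.30 (adjusted p = 0.11, edgeR). Pdgfra exons share 30 bases with Mir7025 on the same strand, and they overlap Gm42802 and Gm42803 on the other strand by 456 and 166 bases.

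Cspg4 (ENSMUSG00000032911, chr9:56865033-56899870, plus strand) encodes the NG2 proteoglycan of oligodendrocyte precursors and pericytes. With a base mean of 6.99 normalized counts it was not part of the fit. Its lowest, median and highest levels were 0, 0.192 and 0.42 normalized CPM at D20, and 0.166, 1.14 and 2.51 at D30. In between they were 0, 0.0675 and 0.466 at D22 and 0, 0.209 and 0.55 at D25. D30 organoids 1, 2, 3, 4 and 5 lay above every D20, D22 and D25 organoid, and organoid 6 within their range. The mean difference between D30 and D20 was 1.04 normalized CPM (exact two-sided permutation test, p = 0.0152, where the smallest p the design allows is 0.00216).

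Transcripts of Mbp, Cnp and Mog, the myelin genes among the members, showed no such gain from D20 to D30. Some other myelin genes did rise and are given below. Mbp (ENSMUSG00000041607, chr18:82475146-82585637, plus strand) encodes myelin basic protein, which compacts the myelin sheath. Its locus also gives longer golli transcripts, which occur outside oligodendrocytes, and counts per gene do not separate them. At D20 the lowest, median and highest levels were 26.4, 28.1 and 30.1 normalized CPM, with an SD of 4.6% of the mean. They were 21.7, 26.4 and 27.3 at D22, 18.8, 23.9 and 26.9 at D25, and 10.9, 15.1 and 25.5 at D30. All 6 D30 organoids lay below every D20 organoid, though organoid 1 was within the ranges of D22 and D25 and organoid 2 within that of D25. The log2 fold change of Mbp was -0.80 ± 0.15 between D20 and D30 (adjusted p = 0.000117, edgeR). From D25 to D30 it was -0.53 ± 0.15 (adjusted p = 0.0324, edgeR), with 4 of 6 D30 organoids below every D25 organoid. That step was called without D30 organoid 1 (-0.70, adjusted p = 0.00146, edgeR) and among annotated genes only (-0.59, adjusted p = 0.00569, edgeR), while adjusted p reached 0.119 over the other settings.

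Cnp (ENSMUSG00000006782, chr11:100574904-100591729, plus strand) encodes a phosphodiesterase of non-compact myelin that is present early in oligodendrocyte maturation. The lowest, median and highest levels were 17.3, 21.1 and 25.0 normalized CPM at D20, and 14.8, 17.4 and 21.1 at D22. They were 9.13, 10.2 and 12.4 at D25 and 8.31, 11.7 and 22.8 at D30. All D25 organoids lay below all D22 organoids. At D30, organoids 1 and 2 were above every D25 organoid, with 22.8 and 17.9, while the other 4 were at 8.31 to 12.3. The log2 fold change of Cnp for D25 against D22 was -0.77 ± 0.18 (adjusted p = 0.00545, edgeR). The call was lost when 1 of 7 organoids was left out, with an adjusted p of at most 0.0163 (edgeR) and log2 fold changes from -0.81 to -0.71. These were D22 organoids 1, 3 and 5 and D25 organoids 2, 4, 5 and 6. From D20 to D30 Cnp changed by -0.61 ± 0.18 (adjusted p = 0.00819, edgeR), with 4 of 6 D30 organoids below every D20 organoid. This call lay near the threshold and was absent in 5 of 8 other settings, with adjusted p from 1.14e-05 to 0.0347 over the settings, DESeq2 among those without a call (-0.54, adjusted p = 0.0133). The lowest of these belongs to a log2 fold change of -1.0 without D30 organoids 1 and 2, an alternative chosen after the data were seen. It was also lost in 10 of the 24 fits with 1 organoid left out, namely D20 organoids 1, 2, 4 and 5, D22 organoids 1 and 5 and D30 organoids 3, 4, 5 and 6, with adjusted p up to 0.0262 (edgeR). Cnp exons overlap those of Dnajc7 on the other strand by 154 bases.

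Mog, the member with the fewest counts (ENSMUSG00000076439, chr17:37010743-37023398, minus strand) encodes myelin oligodendrocyte glycoprotein, a protein of the outer sheath that appears late in maturation. Its lowest, median and highest levels were 0, 0.0686 and 0.384 normalized CPM at D20 and 0.0554, 0.132 and 0.428 at D30. Between 0 and 7 counts were found per organoid, with 11, 3, 4 and 20 counts in all organoids of D20, D22, D25 and D30. Organoids 1 and 2 held 7 counts each at D30, and 1 organoid of D20 held 6. Levels of D30 and D20 differed by 0.0805 normalized CPM (exact two-sided permutation test, p = 0.374). Both groups overlapped, and a difference was not detectable at this depth.

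**Figure D2:**
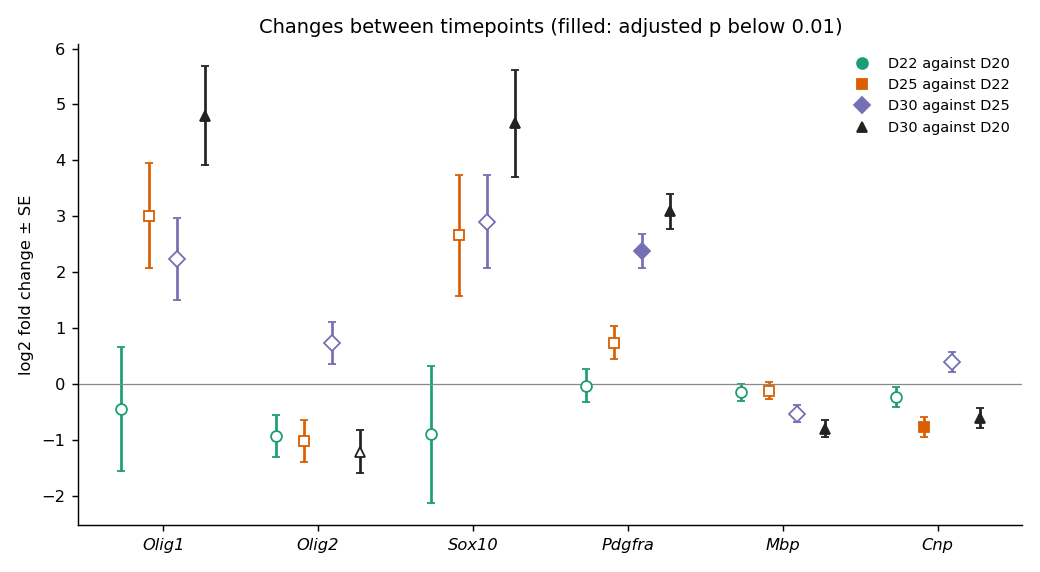
Log2 fold change with its SE (vertical axis) of the 6 tested members (horizontal axis) for the 4 comparisons of timepoints, n = 6 organoids each, with filled symbols for an adjusted p below 0.01. From D20 to D30, Olig1, Sox10 and Pdgfra rose by 4.8, 4.66 and 3.09, whereas Mbp and Cnp had log2 fold changes of -0.80 and -0.61.

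Per kilobase of exon, Olig2, Cnp and Mbp had the same order of means at D20 and D30, while Pdgfra and Olig1 stood higher among the members at D30. At D20, Olig2 was highest with 11.3 ± 2.18 normalized CPM per kb, followed by Cnp with 5.76 ± 0.884, Mbp with 3.33 ± 0.153 and Pdgfra with 1.01 ± 0.422. Those neighbours were each apart by more than their SDs. Olig1, Mog, Sox10 and Cspg4 followed with 0.0942, 0.0707, 0.0292 and 0.017 per kb and did not differ beyond their spread. At D30, Pdgfra had the highest mean, 8.57 ± 3.81 per kb. Olig2 with 4.87 ± 3.73, Cnp with 3.78 ± 1.51, Olig1 with 2.72 ± 2.42, Mbp with 1.92 ± 0.664 and Sox10 with 0.809 ± 0.932 came next. From Pdgfra to Mbp each gene was within an SD of its neighbour, and Mbp and Sox10 were apart by more than either SD. Mog and Cspg4 were last, with 0.118 ± 0.102 and 0.104 ± 0.0726 per kb.

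Other genes of oligodendrocyte precursors were read beside the members. In a list of 15 such genes, 13 were tested, and 10 rose from D20 to D30 while 1 fell and 2 were not called, where 25.1% of annotated genes rose and 16.7% fell. Enpp6, Gpr17 and Bcas1 had few or no counts at D20 and passed the minimum for testing through D30, so they had to differ and the count is a description. From D25 to D30, 6 of the 13 rose, namely Sox6, Gpr17, Lhfpl3, Bcas1, Enpp6 and Tnr. That count is likewise a description, beside 1.76% of all features higher and 7.38% of annotated genes called in either direction in this step. In that step Pcdh15, Myt1 and C1ql1 had log2 fold changes of 0.03, 0.07 and 0.16 and were not called. The median log2 fold change from D20 to D30 was 3.05, also with Enpp6, which had 0 counts at D20, at its lower bound. Gpr17, a receptor of precursors committed to differentiate, had 0.304 ± 0.586 normalized CPM at D20 and 25.0 ± 33.4 at D30, with 5 of 6 organoids above every D20 organoid (log2 fold change 6.36 ± 0.96, adjusted p = 3.67e-06, edgeR). Its D30 counts were 1559, 552, 76, 179, 164 and 0 in organoids 1 to 6. Bcas1, a mark of newly forming oligodendrocytes, had 1327, 346, 51, 58, 78 and 3 counts in the same organoids and rose by 7.38 ± 1.09 (adjusted p = 2.61e-06, edgeR). Organoid 1 thus held 59.3% of the summed D30 level of Gpr17 and 69.4% of that of Bcas1. Without D30 organoids 1 and 2 together, an alternative chosen after the data were seen, both genes had smaller log2 fold changes of 4.48 and 4.81. The adjusted p of 0.000342 and 0.000513 (edgeR) there, the highest over the settings, belong to genes that had to differ and are a description. Without organoid 1 alone the log2 fold changes were 5.32 and 5.93. Gpr17 was at 8.39 without D20 organoid 5 and Bcas1 at 8.54 without D20 organoid 4, and with the replicate number as a block they were at 5.77 and 6.63.

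Enpp6, an enzyme of newly forming oligodendrocytes, was at 0 counts in all D20 organoids and had 296 at D30, at least 88.2-fold higher against 3 counts over the group. Unlike Gpr17 it was present in all 6 D30 organoids, with 25 to 111 counts. Tnr, a matrix protein of precursors and some neurons, rose by 4.17 ± 0.57 (adjusted p = 6.9e-07, edgeR) and had 131 counts in organoid 6 against 3061 in organoid 1. The rise of Tnr was 4.93 without D20 organoid 4 and 3.46 without D30 organoids 1 and 2. Ptprz1, the most abundant gene of the list and shared with radial glia and astrocytes, rose by 2.65 ± 0.50 (adjusted p = 9.12e-05, edgeR), to 319 ± 192 normalized CPM. Sox6, Lhfpl3, Pcdh15, C1ql1 and Myt1 also rose, by 2.11, 4.16, 3.59, 3.05 and 0.67 on the log2 scale. Pcdh15, also a photoreceptor and hair cell protein, was already at 78.2 normalized CPM or more in all D25 organoids. Sox8 and Zfp488 were not called, with log2 fold changes of -0.37 and 0.41. Nkx2-2 and Neu4 stayed below the minimum for testing and were looked at by their counts after the other values had been seen. Nkx2-2 had 41 and 24 counts in D30 organoids 1 and 2 and at most 4 in the others, and Neu4 had 64 and 23 against at most 9. The summed level of the list was 1440, 926, 684, 763, 862 and 441 normalized CPM in D30 organoids 1 to 6, and without Ptprz1 it was 813, 559, 471, 476, 492 and 391. Of the 391 in organoid 6, Myt1 gave 154 and Pcdh15 gave 145. The whole list already summed to 521 ± 60.7 at D20, so its sum is no measure of precursors alone.

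Genes of myelin itself gave a mixed picture. Of 18 listed genes, 8 were tested, 4 of which rose from D20 to D30, 2 fell and 2 were not called, with a median log2 fold change of 1.29 (0.099 over annotated genes, of which 41.8% were called). Gjc3, a connexin of oligodendrocytes, was at 0 counts in all D20 organoids and had 371 at D30, at least 111-fold higher against 3 counts over the group, of which 247 were in organoid 1 and 88 in organoid 2. Organoid 1 held 64.7% of the summed D30 level of Gjc3, so the bound is lower without it. The fitted log2 fold change, which has no exact size against 0 counts, fell from 8.84 to 7.59 without D30 organoid 1. Gjc3 too passed the minimum for testing through D30. Ugt8a, which makes the galactolipids of myelin, rose by 2.13 ± 0.46 (adjusted p = 0.000438, edgeR), and had 1.21 without D30 organoids 1 and 2 (adjusted p = 0.034, edgeR), where it was not called and adjusted p was highest over the settings. Car2, which Müller glia also express, was the most abundant gene of the list at 155 ± 34.2 normalized CPM and rose by 2.19 ± 0.18 (adjusted p = 3.16e-11, edgeR).

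Ermn and Tspan2 fell, with log2 fold changes of -3.91 ± 0.38 and -1.76 ± 0.28, and Cldn11 and Omg had 0.60 ± 0.75 and 1.43 ± 0.44 and were not called. Cldn11 was at -0.50 without D30 organoid 1, and Omg, with log2 fold changes from 1.18 to 2.1 and adjusted p up to 0.0335 over 32 settings, was called in 7 of them. These were DESeq2's test and size factors, no filter on low counts, the replicate number as a block, and the fits without D20 organoid 4 (2.1, adjusted p = 0.000221, edgeR), D25 organoid 2 or D30 organoid 6. The other 10 genes, among them Mag, Mobp, Mal, Opalin, Myrf, Fa2h, Aspa, Trf and Nkx6-2, were below the minimum for testing. Mag, the adhesion protein next to the axon, had 20 and 13 counts in D30 organoids 1 and 2 and at most 4 in the others. Mobp and Opalin did not exceed 8 counts in any D30 organoid, and Myrf, the regulator that starts myelin gene expression, had 5 to 15. Mal was highest in organoid 5 with 48 counts and Aspa in organoid 6 with 50. These genes were named after their counts had been seen. The summed level of the list was 213, 181, 230, 196, 188 and 202 normalized CPM in D30 organoids 1 to 6, to which Car2 gave more than any other gene. The other 17 genes summed to 109, 51.3, 30.7, 32.5, 34.3 and 22.3, highest in organoid 1 and lowest in organoid 6.

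**Figure D3:**
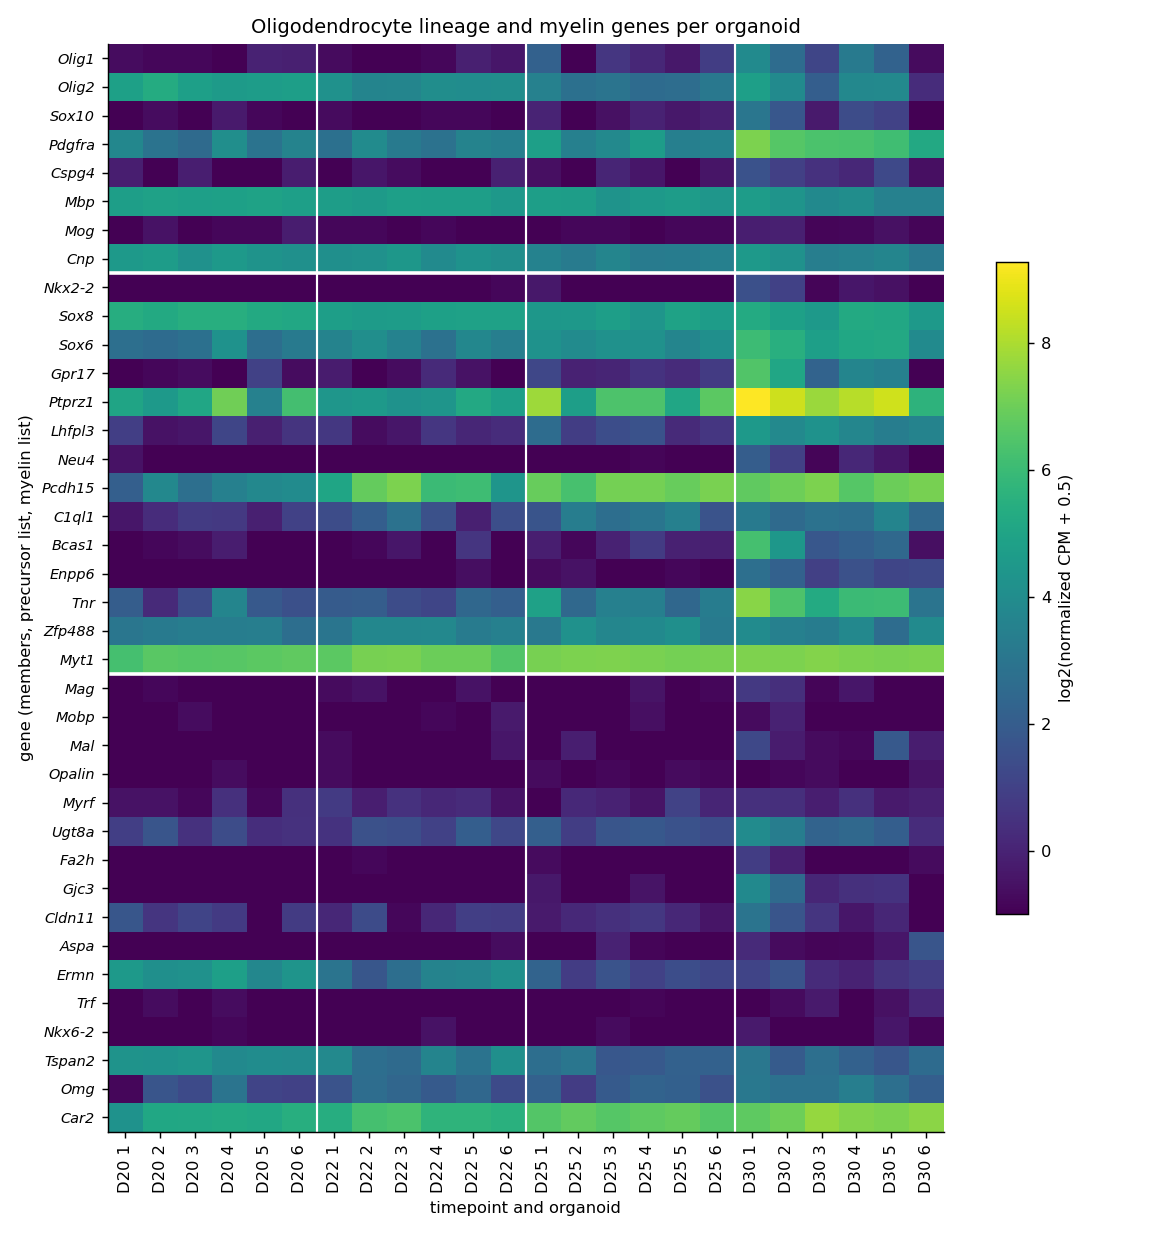
Log2(normalized CPM + 0.5) as colour in the 24 organoids (horizontal axis, grouped by timepoint), for the 8 members, 14 precursor list genes and 16 myelin list genes from top to bottom. Gpr17, Bcas1 and Gjc3 appear at D30 with the highest levels in organoid 1 and near 0 in organoid 6, where Gpr17 and Gjc3 had 0 counts.

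For some members the D30 organoids differed more from each other than those of earlier timepoints. The SD of Olig2 was 76.7% of the mean at D30, against 15.3 to 27.0% before, that of Mbp 34.6% against 4.6 to 13.6%, and that of Cnp 39.9% against 12 to 15.3%. For Pdgfra it was 44.5% at D30 and 33.2 to 46.7% before. Pdgfra, Olig1, Olig2, Sox10, Mbp and Cnp were each highest in organoid 1 and lowest in organoid 6. Among all 16253 annotated genes tested, 27.8% were highest in organoid 1 and 37.4% lowest in organoid 6, so these 2 organoids also stood at the ends for many other annotated genes. Among all 46949 features tested, the shares were 16.8% and 18.2%, and organoid 6 was most often the highest, for 23.9%. In the precursor list, 10 of the 13 tested genes were highest in organoid 1 and 8 lowest in organoid 6. The myelin list had 5 of 8 highest in organoid 1 and 5 lowest in organoid 6. Organoid 1 held 52.8% of the summed D30 level of Sox10, 41.2% of that of Olig1 and 37.2% of that of Olig2, but only 29.6% of that of Pdgfra, 27.6% of that of Cnp and 26.2% of that of Mbp.

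Other cell types differed among the same organoids, and their part in the results above was not tested. Counts of listed genes called from D20 to D30 stand beside 25.1% of annotated genes that rose and 16.7% that fell. Of 7 genes listed for astrocytes, 6 were tested and all 6 rose from D20 to D30. S100b, with means of 0.0873 normalized CPM at D20 and 6.06 at D30, and Agt, with 0.123 and 6.88, passed the minimum mainly through D30. The astrocyte count is therefore a description. Gfap on this list is also made by reactive Müller glia, and the study used it as a mark of gliosis in these organoids, so the list does not separate the glial types. Their summed level at D30 was 3910, 1980, 1170, 1590, 3580 and 745 normalized CPM in organoids 1 to 6, with Gfap the most abundant at 982 ± 890 and only Pax2 below the minimum for testing. Without Gfap the sum was 1870, 1280, 879, 993, 1420 and 632. Of 11 Müller glia genes, 8 rose and 2 fell, Apoe being the most abundant at 1130 ± 512, and the sum was 5400, 3330, 2670, 3340, 4170 and 1890 in organoids 1 to 6. Aqp4 is on both of these lists. Of 9 brain neuron genes, 7 were tested and 1, Emx2, rose (log2 fold change 2.08 ± 0.61, adjusted p = 0.0076, edgeR), a call kept in 21 of 32 settings with adjusted p up to 0.0305. Nkx2-1 was at 0 counts at D30. The brain neuron sum was 311, 217, 91.9, 230, 241 and 6.32 in organoids 1 to 6, and Neurod6, its most abundant gene, had 0.776 normalized CPM in organoid 6 against 13.3 to 175 in the others. Neurod6 is also expressed in amacrine cells of the retina, and the sum of the other 8 genes was 175, 103, 78.5, 107, 66.2 and 5.54. Of 6 photoreceptor genes, 5 rose from D20 to D30, and their sum was 2880, 3880, 4590, 4770, 5190 and 4930 in organoids 1 to 6. It was lowest in organoid 1 and highest in organoid 5, where the astrocyte and Müller glia sums were the second highest. The brain neuron sum of organoid 5 was the second highest with Neurod6 and the second lowest without it. Organoid 6, with a photoreceptor sum of 4930, had 0 counts of Sox10 and Gpr17.

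For Pdgfra and Cspg4, genes of mesenchyme and pericytes were read beside them. Of 8 mesenchyme genes, 7 were tested and 6 rose from D20 to D30. Their summed level was 146, 99.5, 41.8, 86.5, 264 and 55.9 normalized CPM in D30 organoids 1 to 6, with Col3a1 the most abundant at 33.6 ± 38.0. The highest sum was in organoid 5, where Pdgfra, with 69.3, was the second lowest of the D30 organoids. Organoid 1 had the second highest sum and the highest Pdgfra level, 152. Organoid 6 had the second lowest sum and the lowest Pdgfra level, 36.1. Which cells gave the Pdgfra transcripts was not tested. Of 8 pericyte genes, 5 were tested, of which Vtn and Rgs5 rose and Notch3 and Des fell, with Rgs5 the most abundant at 13.2 ± 12.8. The rise was 3.64 ± 0.33 for Vtn (adjusted p = 3.51e-10, edgeR), with 6 of 6 D30 organoids above every D20 organoid, and 3.35 ± 0.85 for Rgs5 (adjusted p = 0.0022, edgeR), with 5 of 6. Kcnj8, Abcc9 and Anpep were below the minimum for testing. The pericyte sum was 55.4, 29.5, 22.0, 30.1, 71.2 and 20.0 in organoids 1 to 6. Cspg4 was likewise lowest in organoid 6, and its highest levels were those of organoid 1 with 2.51 and organoid 5 with 1.89. These organoids had the highest pericyte sums, and organoid 1 also had the highest sum of the precursor list. Which cells gave the Cspg4 transcripts was not tested. Beside Sox10, the list of neural crest, Schwann and pigment cell genes had 2 of 9 tested genes higher, Mitf among them, and 2 lower, Erbb3 and Dct, at D30 than at D20, a called share near that of annotated genes (41.8%). Dct was its most abundant gene at 29.5 ± 15.9, and Foxd3 was at 0 counts at D30. The sum of this list was 153, 122, 90.6, 51.4, 55.8 and 84.3 in organoids 1 to 6. None of the 6 microglia genes reached the minimum for testing, with sums of at most 1.76 normalized CPM at D30 and Csf1r the most abundant at 0.299 ± 0.36. Of 4 endothelial genes, 2 were tested, of which Pecam1 rose and Kdr fell, Kdr being the most abundant at 169 ± 28.1. Their sum ranged from 126 in organoid 1 to 209 in organoid 6.

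**Figure D4:**
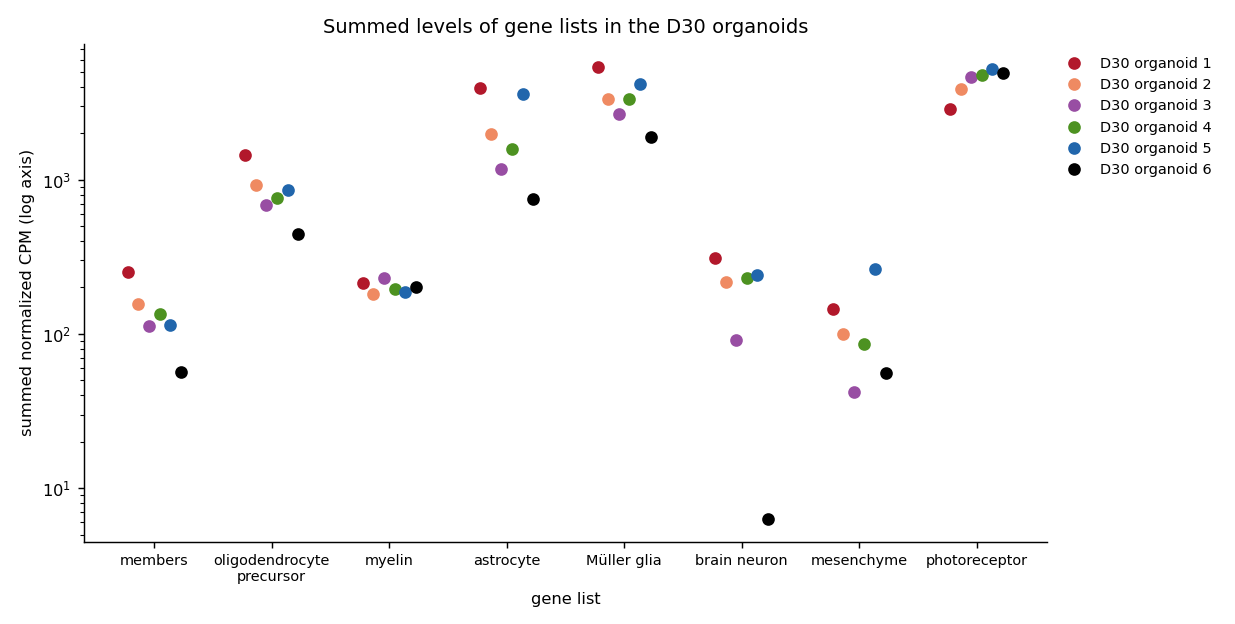
Summed normalized CPM of 8 gene lists (log vertical axis) in each of the 6 D30 organoids, coloured by organoid number. The members and the precursor, astrocyte, Müller glia and brain neuron lists were highest in organoid 1 and lowest in organoid 6. These sums were 253 and 56.4 for the members and 5400 and 1890 for the Müller glia list. The photoreceptor list was lowest in organoid 1 with 2880.

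Olig2 before D30 was read beside genes of neurogenic retinal progenitors. Of 11 such genes, 10 were tested, of which 3 fell by D22, 9 between D22 and D25 and 4 after D25. Of all features, 0.285%, 2.19% and 1.75% were called lower in these steps, and 3.32%, 10.2% and 7.38% of annotated genes in either direction. From D20 to D30, 9 of the 10 list genes fell, with a median log2 fold change of -3.14. Neurod1, the most abundant of the list at D30 with 405 ± 71.2 normalized CPM, was not called. Neurog2 went from 85.0 ± 17.7 at D20 to 8.92 ± 1.46 normalized CPM at D30, and Hes6 from 246 ± 33.0 to 30.3 ± 6.79. In the D30 organoids, the sum of the list was 636, 733, 852, 754, 812 and 882 in organoids 1 to 6. Without Neurod1 it was 334, 350, 367, 357, 437 and 394. Neurod1 and Neurod4 make up most of the sum, and by single genes 4 of the 10 were highest in organoid 1 and 5 lowest in organoid 6.

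The genes most like each member were taken over the 24 organoids, from deviations of log2 normalized CPM from the timepoint means, among 10829 or 10830 annotated genes that averaged 100 normalized counts or more. Organoids of the same timepoint share a differentiation and differ in depth, and the correlations are a description. For Olig1 they were Arpc5, Gpd2, Plppr1, Sept11 and Pdzrn3, with Pearson's r from 0.88 to 0.90. For Olig2 they were Setd7, Mycl, Scd2, Fzd3 and Ndrg2, with r from 0.91 to 0.92, and for Sox10 they were Plpp3, Arl8b, Qk, Zbtb20 and Mycl, with r from 0.86 to 0.89. Qk encodes an RNA-binding protein of glia, and it had 725 normalized CPM in D30 organoid 1 and 154 in organoid 6. Mycl stood on the lists of both Olig2 and Sox10, and Qk on those of both Sox10 and Cnp. Fut9, Fam168a, Fam171b, Pcdhb3 and Dgcr2 were most like Pdgfra, with r from 0.81 to 0.83. Mbp was followed most closely by Mex3b, Spast, Zcchc14, Grip1 and Pag1, with r from 0.79 to 0.81. The genes for Cnp were Pfn2, Abcd3, St6gal1, Gna13 and Qk, with r from 0.79 to 0.80. Spearman's rho, which uses ranks only, was 0.54 to 0.63 for the genes of Cnp and 0.54 to 0.73 for those of Mbp. It was 0.66 to 0.74 for Sox10, 0.7 to 0.76 for Olig2, 0.69 to 0.83 for Olig1 and 0.76 to 0.85 for Pdgfra.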

How the data were processed

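RNA sequencing libraries of 24 single MROs were analysed. Per the labels and the methods of the study, the authors removed ribosomal RNA, made strand-specific libraries, trimmed the reads with cutadapt (version 1.5), aligned them to GRCm38/mm10 with HISAT2, assembled transcripts with StringTie (version 1.3.3) and counted reads per feature with HTSeq (version 0.6.1). They deposited these counts, whole numbers without normalization, for 126602 features. Of the reads assigned or outside every feature, 37.71 to 49.18% per organoid were outside and were left out. The strand setting of the counting is not given in the sources used here.

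Features averaging 10 or more DESeq2-normalized counts were kept (46949, of which 16253 annotated). Counts were tested with edgeR (version 4.0.16, TMM, quasi-likelihood test) in R (version 4.3.3), with all 24 organoids in 1 fit and no covariates. SEs were derived from the F statistic. Members below the minimum were compared with an exact permutation test (scipy version 1.17.1). Alternatives were DESeq2 (version 1.42.0) as test and for size factors, other filters, a fit of annotated genes only, a block for the replicate number, the compared timepoints only and each organoid left out in turn. No pair of organoids of a timepoint agreed within counting noise (the lowest chi-square over its degrees of freedom was 6.12 among 60 pairs). The common biological coefficient of variation was 0.385. Floors of 3 counts cover counting error only. Gene lengths and positions came from GENCODE vM21 (GRCm38).

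The members and gene lists were chosen with earlier results of these data known. Named genes are the 8 members, list genes past 0.01, the most abundant gene of each list and, for each tested member, the 5 genes with the highest correlation. Other list genes are named to account for a whole list. Some list genes are counted in the totals and sums but not reported here by name.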

Additional observations from a re-analysis of the deposited data

Results flagged for a closer look

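In 2 of 32 groups of 6 organoids, formed by the 8 members and 4 timepoints, 1 organoid was far from the others for the range of its group. Chance flags about 1 in 20 groups. Olig1 in D25 organoid 1 was at 4.11 normalized CPM, and the nearest of the other D25 organoids at 1.34, a gap of 0.673 of the whole range. Without this organoid the log2 fold change of Olig1 up to D25, compared with D22, was 2.11, and after D25 it was 3.13 at D30. Olig2 in D20 organoid 2 was at 39.4 normalized CPM, with the nearest at 28.5 and a gap of 0.715 of the range.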

How the results depend on the processing

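Of 752 comparisons of a member's log2 fold change with its value under another setting, 708 kept direction and side of the threshold, 22 lost the call, 14 gained it and 8 changed sign. The causes were not tested. In fits of the compared timepoints only, 1 member was called for D22 against D20 and 2 for D25 against D22. For D30 against D25, 2 were called with DESeq2's test, with annotated genes only and without D30 organoids 1 and 2, an alternative chosen after the data were seen. For D30 against D20, 3 were called with filterByExpr, which left out Sox10 and lost the call of Cnp. There 4 were called with DESeq2's test, its size factors and the compared timepoints only, 6 with annotated genes only, the replicate block and without D30 organoids 1 and 2, and 4 to 6 with 1 organoid left out. Leaving out 1 organoid gave 0 to 2 calls for D25 against D22 and 1 to 2 for D30 against D25. Sign changes concerned values not called for D22 against D20. Pdgfra had log2 fold changes of 0.01 with annotated genes only and 0.07 with the replicate block, and from -0.19 to 0.16 with 1 organoid left out (0.04, 0.16 and 0.01 without D20 organoids 1, 4 and 6, and 0.05 and 0.04 without D22 organoids 1 and 4). Sox10 had -1.47 to 0.11, the latter without D20 organoid 4. Replicate numbers do not pair organoids, whose same-number correlations ran from -0.083 to 0.214 over 36 pairs. With the replicate block, Olig2 from D20 to D30 was called (-1.41, adjusted p = 0.0044, edgeR). All values rest on 1 experiment, and genes with few counts, such as Mog, allow no statement on small differences.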
